A study of Mus musculus with 20 samples.

Results

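The 9 genes described here encode the presynaptic ribbon and active zone machinery through which hair cells release glutamate: Otof, Cabp2, Cacna1d, Ctbp2, Bsn, Pclo, Rims1, Rims2 and Rimbp2. They were listed by name, with earlier results of these data known, and were found among the 24411 genes of the deposited tables. The study asked how the mouse cochlea responds to loss of the long isoform of BAI1 (gene Adgrb1), an adhesion G protein-coupled receptor. RNA was sequenced from pools of 4 mice of both sexes, holding the sensory epithelium and the spiral ganglion of the apical coil, at postnatal day 7 (P7) and 22 (P22). Controls were heterozygous (Bai1tm2b/+), so they carried the tm2b allele on one chromosome, and mutants were homozygous (Bai1tm2b/tm2b). The tm2b allele lacks exons 3 and 4 of Adgrb1, holds a lacZ cassette and leaves the short isoform in place. All mice were on a C57BL/6N background, whose Cdh23 ahl allele both genotypes share.

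The 20 libraries formed 3 sets. The P22 set held 3 libraries per genotype in estimated counts, with 35725985 to 40350413 counts each. The P7 count set held 3 libraries per genotype with 31108551 to 58807173 counts each, and an earlier P7 set held 4 libraries per genotype only as TPM, a transcript abundance corrected for length and depth, rounded to whole numbers. Levels in the count sets are CPM, counts relative to library size, after TMM scaling of all 12 libraries. All 16 hair cell markers and all 14 neuron markers were detected in both count sets. A gene was called higher or lower in Bai1tm2b/tm2b when its Benjamini-Hochberg adjusted p was under 0.05, its log2 fold change exceeded 0.5 in size and its standard error was under 0.5.

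At the hair cell synapse, depolarisation opens CaV1.3 calcium channels beside an electron-dense ribbon that holds vesicles close to the membrane. Calcium entering through these channels triggers vesicle fusion through otoferlin, in place of the synaptotagmins used at most neuronal synapses. Several scaffold proteins of the ribbon and of the active zone are also used at conventional synapses of neurons, and spiral ganglion neurons transcribe their genes as well. Hair cells are a small part of this tissue, and in bulk RNA fewer cells of a type and less RNA per cell cannot be told apart.

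Gene-level values also sum over products. Ctbp2 (chromosome 7, 132987563 to 133124354, minus strand, GRCm38) has 12 annotated coding transcripts. The transcript that starts at 133015248, inside the gene, encodes 988 residues and corresponds to the ribbon protein RIBEYE, whereas the long-span transcript Ctbp2-201 encodes the 445 residues of the widely expressed co-repressor CtBP2. One count covers both, and likewise one count covers all products of Pclo. Other genes overlap 5.05% of the exonic sequence of Ctbp2 on the same strand, and 4.67% of Cacna1d and 4.12% of Pclo on the opposite strand, and whether the counting used strand was not given in the sources used here.

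Of the 3 members called at P22, Cabp2 and Rims1 have promoter windows in the RefSeq table for GRCm38.p6, and Otof does not. The 250 bases upstream of 1 start are shown for each because these genes differed between genotypes in opposite directions. The table holds 2 windows for Cabp2. Both lie inside the annotated gene, which starts at 4081578, so the bases upstream of that annotated start were not searched. The upstream window of Cabp2 is chr19:4082238-4082487 on the plus strand and the Rims1 window is chr1:22806159-22806408 on the minus strand. All were searched on both strands, with overlapping matches counted, for an E-box (CAGCTG), a GC box (GGGCGG) and a TATA box (TATAAA), and matches are in capitals.
Cabp2: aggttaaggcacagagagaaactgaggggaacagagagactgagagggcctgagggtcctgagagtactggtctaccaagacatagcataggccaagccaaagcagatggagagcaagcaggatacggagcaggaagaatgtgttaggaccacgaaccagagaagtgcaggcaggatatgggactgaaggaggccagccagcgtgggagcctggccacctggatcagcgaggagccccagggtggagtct
Rims1: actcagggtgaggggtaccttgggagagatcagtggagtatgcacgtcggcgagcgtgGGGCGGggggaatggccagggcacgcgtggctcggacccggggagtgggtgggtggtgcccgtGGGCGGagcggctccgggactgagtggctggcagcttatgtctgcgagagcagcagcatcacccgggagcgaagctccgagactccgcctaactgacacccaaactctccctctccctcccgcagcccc
The Rims1 window held 2 GC boxes and neither of the other motifs, and the upstream Cabp2 window held none of the 3, nor did the second Cabp2 window at chr19:4083269-4083518, which is not shown. Among 32851 windows of the same length, 32.7% held the GC box, 13% the E-box and 12.4% the TATA box. The GC content was 68% in the Rims1 window and 56.8% and 61.6% in the Cabp2 windows.

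At P22, 2 of the 9 members rose and 1 fell in Bai1tm2b/tm2b cochleae. Over all 15443 genes tested, 1.74% were called higher and 1.41% were called lower. Because the members were chosen with earlier results of these data known, these shares do not measure an excess of calls among them. By edgeR 4431 of the 15443 genes had an unadjusted p under 0.05. The share of all genes whose libraries did not overlap between genotypes was not counted in any set. Otof and Cabp2, a calcium sensor of release and a calcium-binding regulator of CaV1.3 that are known from hair cells, were the members that rose. Rims1, an active zone protein that tethers vesicles and channels, was the member that fell. The other 6 members were not called, and their log2 differences lay between -0.34 and 0.09.

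Otof (chromosome 5, 30367062 to 30461932, minus strand) was at 96.4, 85.1 and 83.2 CPM in the 3 Bai1tm2b/+ libraries and at 108, 125 and 149.6 CPM in the 3 Bai1tm2b/tm2b libraries. The genotypes did not overlap, and the mutant libraries were also more spread. The means were 88.3 ± 7.15 and 128 ± 21.1 CPM (SD, n = 3), a log2 difference of 0.54 ± 0.109 (SE, edgeR adjusted p = 0.0121). The call did not hold without the third Bai1tm2b/+ library (0.50, adjusted p = 0.0503) or without the third Bai1tm2b/tm2b library, where the difference was 0.40.

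Cabp2 (chromosome 19, 4081578 to 4087340, plus strand) was at 12.6, 8.83 and 7.54 CPM in Bai1tm2b/+ and at 16.5, 15.0 and 19.8 CPM in Bai1tm2b/tm2b. Every mutant library was above every control library. The log2 difference was 0.83 ± 0.177 (SE, edgeR adjusted p = 0.0147), from 9.64 ± 2.60 to 17.1 ± 2.41 CPM (SD, n = 3). Without the third Bai1tm2b/+ library it was 0.68 with an adjusted p of 0.0507, above the threshold.

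Cacna1d, which encodes the pore of the CaV1.3 channel that Cabp2 regulates, was at 50.0 ± 5.24 CPM in Bai1tm2b/+ and 52.9 ± 3.41 CPM in Bai1tm2b/tm2b (SD, n = 3). The ranges overlapped, and the log2 difference was 0.09 ± 0.0856 (SE, edgeR adjusted p = 0.531). Ctbp2, the ribbon gene, was at 35.6 ± 1.82 and 35.0 ± 1.93 CPM, a log2 difference of -0.02 ± 0.0743 (SE, adjusted p = 0.903). It was the member with the smallest difference at P22, although its count cannot separate RIBEYE from CtBP2.

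Rims1 (chromosome 1, 22286251 to 22805994, minus strand) was at 17.7, 15.6 and 20.3 CPM in Bai1tm2b/+ and at 10.3, 12.05 and 11.1 CPM in Bai1tm2b/tm2b. All mutant libraries lay below all controls, with means of 17.8 ± 2.35 and 11.1 ± 0.886 CPM (SD, n = 3). The log2 difference was -0.67 ± 0.118 (SE, edgeR adjusted p = 0.00684), and the gene stayed called lower when any of the 6 libraries was left out, at -0.77 to -0.57. Its paralogue Rims2 overlapped between genotypes, at 31.9 ± 4.08 and 29.5 ± 2.74 CPM (log2 difference -0.11, adjusted p = 0.540).

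The scaffold genes had lower values in the mutant but were not called. Bsn, whose product bassoon anchors the ribbon, was at 102, 89.5 and 116 CPM in Bai1tm2b/+ and at 87.8, 83.2 and 79.7 CPM in Bai1tm2b/tm2b. These values did not overlap, and the log2 difference was -0.28 ± 0.0878 (SE, edgeR adjusted p = 0.0595). Pclo, which encodes the related protein piccolo, overlapped between genotypes at 54.5 to 76.1 and 46.6 to 56.9 CPM (log2 difference -0.34, adjusted p = 0.0795). Rimbp2, whose product links RIM proteins to calcium channels, was at 30.0 to 36.9 CPM in Bai1tm2b/+ and at 25.5 to 29.5 CPM in Bai1tm2b/tm2b. Its ranges did not overlap, and its log2 difference was -0.26 ± 0.0943 (SE, adjusted p = 0.0961).

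**Figure D1:**
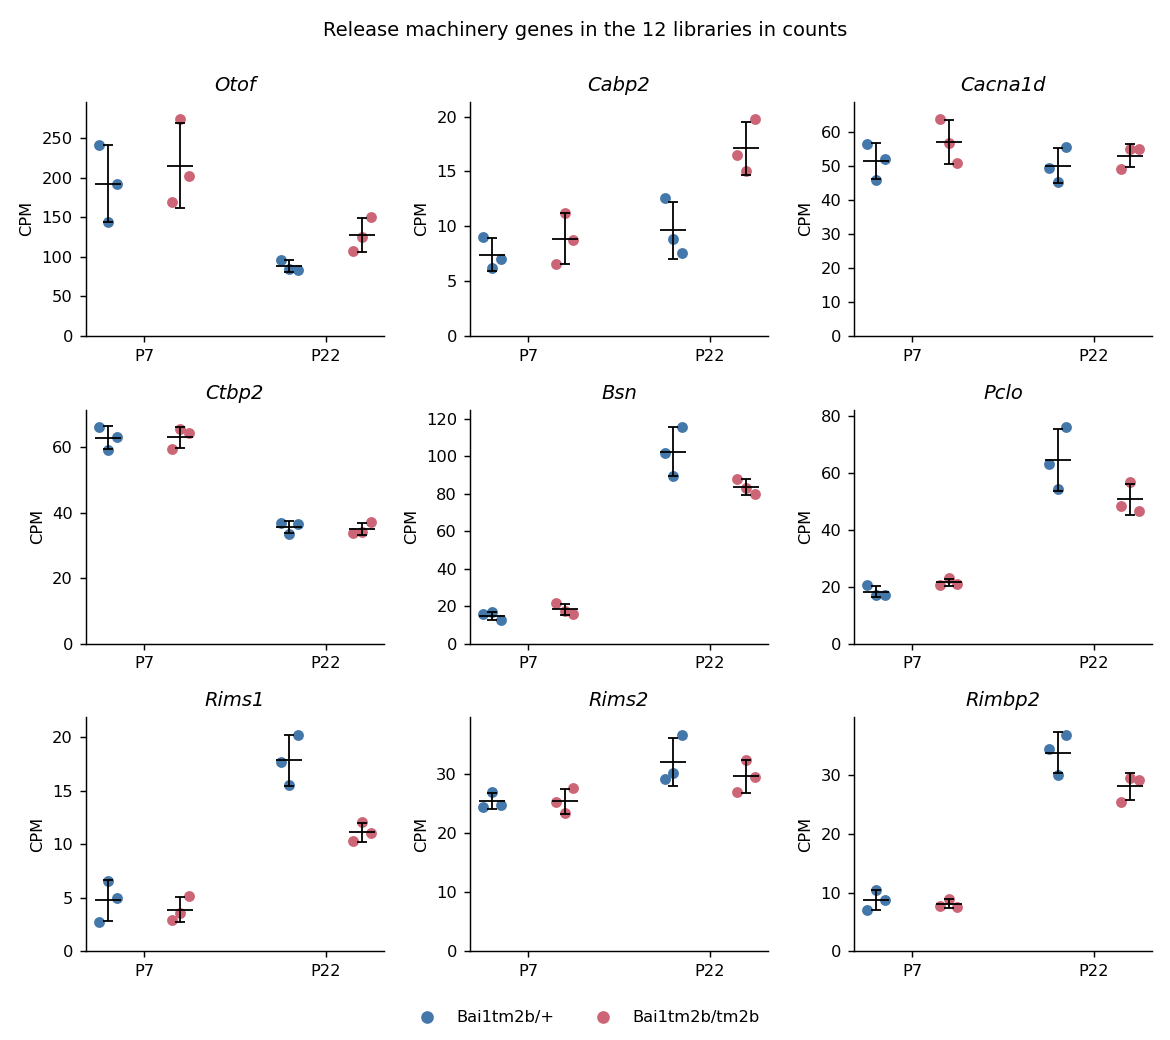
CPM of each member in the 12 libraries in counts, with P7 and P22 side by side in each panel; points are libraries (n = 3 per genotype and age) and bars give the mean and SD. At P22 the Bai1tm2b/tm2b libraries lie above all Bai1tm2b/+ libraries for Otof and Cabp2 and below them for Rims1, Bsn and Rimbp2. The share of all genes without overlap was not counted.

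Cell type markers moved with these members at P22. Of 15 hair cell markers tested, 14 had a positive log2 difference, with a median of 0.41, and 3 were called higher: Espn, Ocm and Barhl1. The exception was Pvalb, which neurons also transcribe and which made up 57.3% of the summed hair cell marker level. The full sum was 1160 to 1212 CPM in Bai1tm2b/+ and 1197 to 1237 CPM in Bai1tm2b/tm2b, a ratio of 1.02 (exact 2-sided permutation p = 0.3). Without Pvalb, a choice made after seeing the values, it was 420 to 445 CPM in Bai1tm2b/+ and 541 to 618 CPM in Bai1tm2b/tm2b, a ratio of 1.34 (exact permutation p = 0.1, the smallest that 3 against 3 libraries allow).

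Set against the full hair cell sum, Otof was 7.44 ± 0.448% of it in Bai1tm2b/+ and 10.5 ± 1.56% in Bai1tm2b/tm2b (SD, n = 3), without overlap. Against the sum without Pvalb it was 20.2 ± 1.45% and 21.7 ± 2.81%, which overlapped (exact permutation p = 0.6). The log2 difference of Otof relative to the hair cell markers was thus 0.49 by the full sum, 0.10 without Pvalb and -0.16 by the median marker. Cabp2 was 0.811 ± 0.201% of the full sum in Bai1tm2b/+ and 1.41 ± 0.175% in Bai1tm2b/tm2b, without overlap, and 2.21 ± 0.567% and 2.93 ± 0.441% of the sum without Pvalb, with overlap (exact permutation p = 0.2). On every one of these scales the Cabp2 value stayed positive, at 0.82 by the full sum, 0.43 without Pvalb and 0.14 by the median marker, whereas that of Otof did not.

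Neuron markers moved the other way. All 14 had a negative log2 difference at P22 (median -0.27), 1 of them, Nefh, was called lower, and their sum was 14269 to 16013 CPM in Bai1tm2b/+ and 10612 to 12119 CPM in Bai1tm2b/tm2b, a ratio of 0.747 (exact permutation p = 0.1). Rims1 was 0.118 ± 0.00868% of this sum in Bai1tm2b/+ and 0.0996 ± 0.0144% in Bai1tm2b/tm2b (SD, n = 3), and the genotypes overlapped (exact permutation p = 0.2). Nefh, Nefm and Nefl held most of this sum, at 3987, 3528 and 2726 CPM in Bai1tm2b/+ and 2759, 2613 and 1982 CPM in Bai1tm2b/tm2b. Bsn was 0.678 ± 0.0480% and 0.744 ± 0.0345% of the sum. Its mutant libraries lay just above the controls on this scale, with the highest control at 0.722% and the lowest mutant at 0.724%. The log2 difference of Bsn was 0.14 by the sum and 0.03 by the median neuron marker. Pclo and Rimbp2 overlapped on the scale of the sum. Markers of glia of the central nervous system were higher in the mutant pools, with 3 of 6 called and a sum ratio of 1.45 (268 to 312 CPM and 308 to 519 CPM, exact permutation p = 0.2). Of 6 supporting cell markers, Tectb and Fgfr3 were called higher and Prox1 was called lower, 5 had a positive log2 difference (median 0.35), and their sum was 272 to 333 CPM in Bai1tm2b/+ and 323 to 385 CPM in Bai1tm2b/tm2b, a ratio of 1.19 (exact permutation p = 0.2). The part of cell composition in the differences of the members was not tested.

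**Figure D2:**
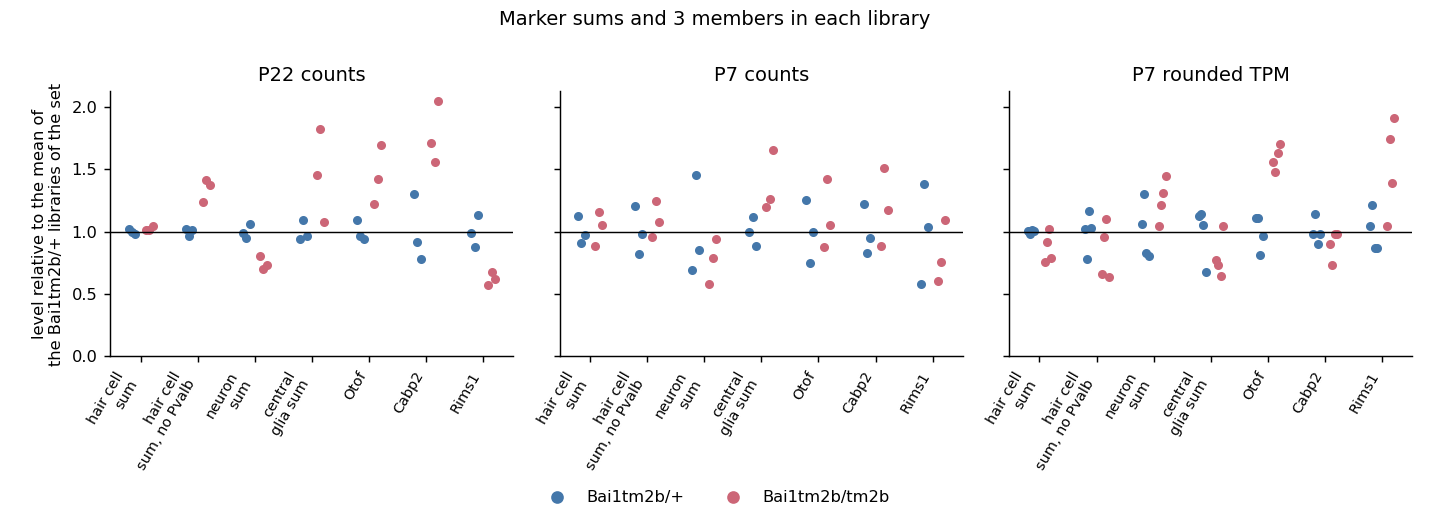
Summed marker levels and the levels of Otof, Cabp2 and Rims1 in every library, each divided by the mean of the Bai1tm2b/+ libraries of its set (vertical axis, no unit); points are libraries. At P22 the hair cell sum without Pvalb, Otof and Cabp2 lie above 1 in all mutant libraries, and the neuron sum and Rims1 lie below 1.

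In the P7 count set no member was called, and 0% of the 16026 genes tested were called higher and 0% lower by edgeR. The smallest adjusted p was 0.573, 763 genes had an unadjusted p under 0.05, and DESeq2 called 44 genes higher and 4 lower, none of them a member. Otof was at 241, 144 and 192 CPM in Bai1tm2b/+ and at 169, 274 and 202 CPM in Bai1tm2b/tm2b. Both genotypes spanned nearly the same range, so that the log2 difference of 0.18 ± 0.225 (SE, adjusted p = 0.918) was smaller than its error. The control library with the lowest Otof (144 CPM) also had the highest neuron marker sum (3123 CPM against 1495 and 1825 CPM in the other controls) and the lowest hair cell sum without Pvalb (583 CPM against 857 and 700.1 CPM). Between genotypes the hair cell sum had a ratio of 1.03 and the neuron sum a ratio of 0.771, both with overlapping libraries, and markers of brain neurons were at 18.5 to 22.8 CPM in Bai1tm2b/+ and 30.1 to 58.3 CPM in Bai1tm2b/tm2b. Central glia markers summed to 347 to 441 and 471 to 650.1 CPM. The part of these markers in the P7 values was not tested.

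Cabp2 was at 6.18 to 9.06 CPM in Bai1tm2b/+ and 6.57 to 11.2 CPM in Bai1tm2b/tm2b at P7 (log2 difference 0.27 ± 0.221, SE, edgeR adjusted p = 0.894). Rims1 was at 2.76, 6.58 and 4.94 CPM in Bai1tm2b/+ and at 2.88, 3.61 and 5.22 CPM in Bai1tm2b/tm2b. It varied more than 2-fold among the libraries of a genotype in Bai1tm2b/+, and its log2 difference of -0.27 ± 0.340 (SE, adjusted p = 0.920) could not be told from 0. Pclo was the only member whose genotypes did not overlap at P7 in counts, at 17.1 to 20.4 and 20.8 to 22.9 CPM (log2 difference 0.26 ± 0.102, SE, unadjusted p = 0.0370, adjusted p = 0.894). Bsn overlapped at 12.5 to 16.6 and 15.6 to 21.7 CPM (log2 difference 0.32, adjusted p = 0.894). Cacna1d, Ctbp2, Rims2 and Rimbp2 differed by 0.18, 0.03, 0.03 and -0.09 on the log2 scale, each with overlapping libraries.

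In the P7 set in rounded TPM, 6 of the 9 members had a mean of at least 5 TPM and were tested, and Otof was called higher, against 0.673% of 11740 genes called higher and 0.153% called lower. By limma 4057 of these 11740 genes had an unadjusted p under 0.05. Otof was listed at 15, 15, 11 and 13 TPM in Bai1tm2b/+ and at 21, 20, 22 and 23 TPM in Bai1tm2b/tm2b. The genotypes were well apart, and the log2 difference of TPM plus 1 was 0.54 ± 0.0831 (SE, limma adjusted p = 0.0435, exact permutation p = 0.0286, the smallest that 4 against 4 libraries allow). The call was close to its threshold. Without the filter on low values no gene passed it and Otof had an adjusted p of 0.0617, and the call was lost in 6 of the 8 fits that each left out 1 library, with log2 differences of 0.46 to 0.57.

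Cabp2 did not follow Otof in this set. It was at 12, 14, 11 and 12 TPM in Bai1tm2b/+ and at 11, 9, 12 and 12 TPM in Bai1tm2b/tm2b, a log2 difference of -0.25 ± 0.101 (SE, limma adjusted p = 0.115). The hair cell marker sum did not rise here either, with a ratio of 0.871 (1159 to 1198 TPM in Bai1tm2b/+ and 900 to 1206 TPM in Bai1tm2b/tm2b, exact permutation p = 0.143), and 0.840 without Pvalb. This sum rested mostly on 2 genes. Pvalb made up 59.7% of it. Ocm averaged 332 TPM in Bai1tm2b/+ and 234 TPM in Bai1tm2b/tm2b, with overlap, beside 485 and 407.5 TPM for the sum without Pvalb. Of 11 hair cell markers tested, 4 had a positive and 7 a negative log2 difference, with a median of -0.03. The neuron sum had a ratio of 1.25 (exact permutation p = 0.171). Relative to the full hair cell sum, Otof was 1.14 ± 0.174% in Bai1tm2b/+ and 2.12 ± 0.331% in Bai1tm2b/tm2b (SD, n = 4), without overlap. The log2 difference of Otof relative to the hair cell markers was 0.89 by the full sum, 0.96 without Pvalb and 0.38 by the median marker. Relative to the neuron sum it was 0.34, and the genotypes overlapped (exact permutation p = 0.0571). All 6 supporting cell markers had a positive log2 difference in this set, 1 of them, Otog, was called higher, and the sum had a ratio of 1.29 (1386 to 2551 TPM and 2501 to 2793 TPM, exact permutation p = 0.0571). All 5 central glia markers tested were negative and 1 of them, Mog, was called lower, with a sum ratio of 0.801 (exact permutation p = 0.229). The part of these markers in the value of Otof was not tested.

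Cacna1d was at 5 to 6 TPM in Bai1tm2b/+ and 7 to 8 TPM in Bai1tm2b/tm2b, without overlap, but was not called (log2 difference 0.25, limma adjusted p = 0.0928). Rims1 was at 6, 7, 5 and 5 TPM in Bai1tm2b/+ and at 6, 10, 8 and 11 TPM in Bai1tm2b/tm2b. Its log2 difference of 0.41 ± 0.152 (SE, adjusted p = 0.0903) was positive, where that at P22 was negative. Ctbp2, at 26 to 31 and 29 to 34 TPM, and Rims2, at 7 to 11 and 8 to 9 TPM, overlapped between genotypes, with log2 differences of 0.05 and -0.16.

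Bsn, Pclo and Rimbp2 lay under the filter, at 1 to 4 TPM, where rounding to whole numbers is as large as the differences. Bsn was listed at 2 TPM in all 4 Bai1tm2b/+ libraries and at 3, 4, 3 and 3 TPM in Bai1tm2b/tm2b. Pclo was listed at 1 TPM in all 4 Bai1tm2b/+ libraries and at 2, 2, 2 and 3 TPM in Bai1tm2b/tm2b. Rimbp2 was at 2 to 3 and 3 to 4 TPM.

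Long transcripts as a class were higher in the mutant libraries of this set. Among genes split into 5 equal groups by exonic length, the median log2 difference went from -0.15 in the shortest group to 0.15 in the longest, compared with 0.09 to -0.04 at P22 and -0.01 to 0.03 in the P7 count set. Otof, with 7904 exonic bases, Cacna1d, with 12621, and Rims2, with 10389, belonged to the longest group, and Cabp2, with 1350, to the shortest. Rims2 was below 0 in this set, at -0.16. The part of transcript length in these values was not tested.

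**Figure D3:**
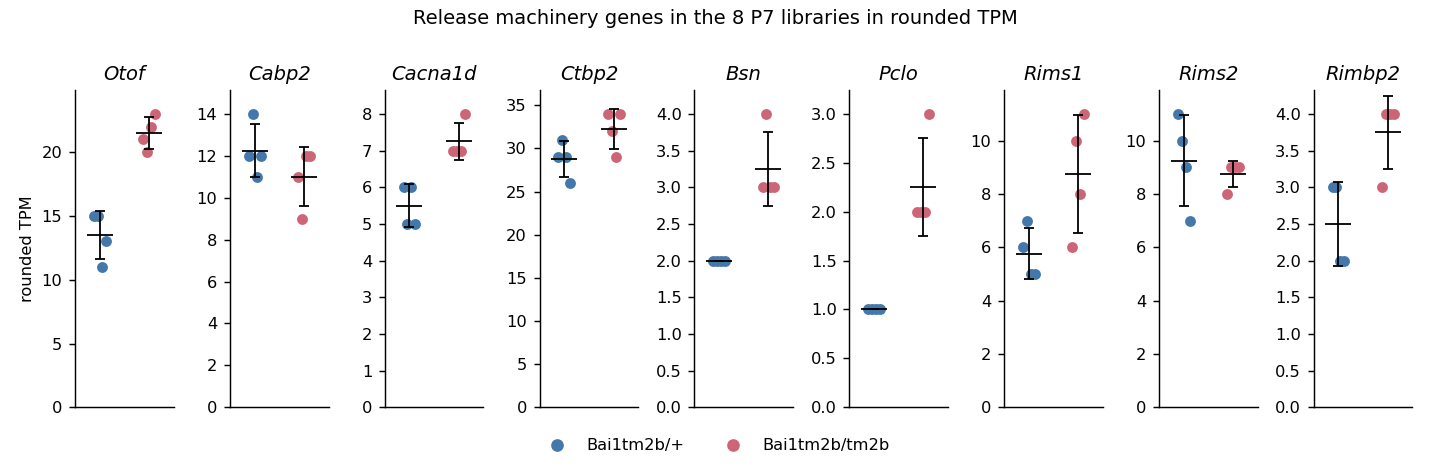
Rounded TPM of each member in the 8 P7 libraries of the earlier set (vertical axes start at 0 and differ between panels); points are libraries, n = 4 per genotype, and bars give the mean and SD. Otof, Cacna1d, Bsn and Pclo do not overlap between genotypes, and Bsn, Pclo and Rimbp2 stay at 4 TPM or less. The share of all genes without overlap was not counted.

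**Figure D4:**
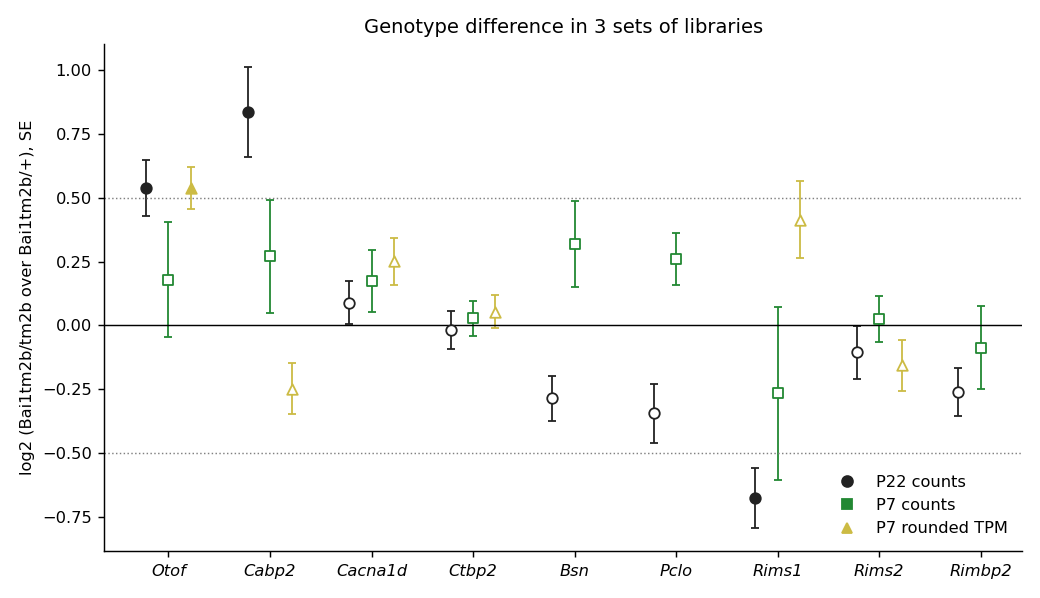
Log2 difference between Bai1tm2b/tm2b and Bai1tm2b/+ for each member in the 3 sets, with SE; filled symbols passed the call and open symbols did not, dotted lines mark 0.5 in each direction, and the 3 members under the TPM filter have no TPM symbol. Otof was positive in all 3 sets and Rims1 was negative in both count sets but positive in TPM.

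Whether a genotype difference itself differed between the ages was tested in the 12 libraries in counts. No member was called, against 0% of the 16314 genes tested called higher and 0.0306% called lower by edgeR, with 1666 genes at an unadjusted p under 0.05 and 31 called higher and 88 lower by DESeq2. The difference of differences, P22 minus P7, was -0.59 ± 0.173 for Pclo (SE, unadjusted p = 0.00509, adjusted p = 0.298) and -0.58 ± 0.189 for Bsn (unadjusted p = 0.00959, adjusted p = 0.329). Both scaffold genes thus had a positive value at P7 and a negative value at P22, with a gap that did not pass the adjusted threshold. For Otof it was 0.37 ± 0.279 (adjusted p = 0.680), for Cabp2 0.57 ± 0.318 (adjusted p = 0.558) and for Rims1 -0.39 ± 0.377 (adjusted p = 0.761), so that these 3 differences were not shown to differ between the ages.

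The members took different courses between the ages. Between the P7 and P22 count sets 5 of 9 members were higher at P22 and 2 were lower, where 25.9% of 16314 genes were called higher and 28.7% lower. Age coincides with table, dissection batch and sequencing run, and these cannot be told apart.

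Bsn, Rimbp2, Rims1 and Pclo had the largest increases of the 9 members. Bsn went from 14.9 ± 2.13 CPM at P7 to 102 ± 13.1 CPM at P22 in Bai1tm2b/+ and from 18.2 ± 3.14 to 83.6 ± 4.09 CPM in Bai1tm2b/tm2b (SD, n = 3), a log2 difference over both genotypes of 2.49 ± 0.0988 (SE, edgeR adjusted p = 2.2e-10). Rimbp2 rose by 1.87, Rims1 by 1.70 and Pclo by 1.53 on the log2 scale, and no P7 library of these 4 genes reached the lowest P22 library. Cabp2 rose by 0.67 ± 0.160 (SE, adjusted p = 0.00184), with a log2 difference of 0.38 within Bai1tm2b/+ (adjusted p = 0.148) and 0.96 within Bai1tm2b/tm2b (adjusted p = 0.00205). Rims2 differed by 0.28, under the size required for a call.

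Otof fell from 192 ± 48.7 CPM at P7 to 88.3 ± 7.15 CPM at P22 in Bai1tm2b/+ and from 215 ± 53.5 to 128 ± 21.1 CPM in Bai1tm2b/tm2b (SD, n = 3), a log2 difference of -0.94 ± 0.141 (SE, edgeR adjusted p = 4.2e-05). Ctbp2 fell from 62.9 ± 3.50 to 35.6 ± 1.82 CPM in Bai1tm2b/+ and from 63.1 ± 3.21 to 35.0 ± 1.93 CPM in Bai1tm2b/tm2b. Its log2 difference was -0.84 ± 0.0510 (SE, adjusted p = 8.1e-09). Cacna1d stayed at 45.8 to 63.6 CPM at P7 and 45.2 to 55.6 CPM at P22, a log2 difference of -0.07 ± 0.0750 (SE, adjusted p = 0.386). The genes of calcium-triggered release, Otof, Cacna1d and Cabp2, therefore differed in direction between the sets.

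Marker levels beside these values differed in the same 2 directions. All 14 neuron markers were called higher at P22, with a median log2 difference of 2.45, and of 16 hair cell markers 9 were called lower and 2 higher, with a median of -0.77. With libraries scaled by total counts alone, the median of all genes was -0.34 rather than -0.05, Cabp2 was at 0.38 and no longer called, and Rims2 was at -0.01. The part of cell composition in the age differences was not tested.

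**Figure D5:**
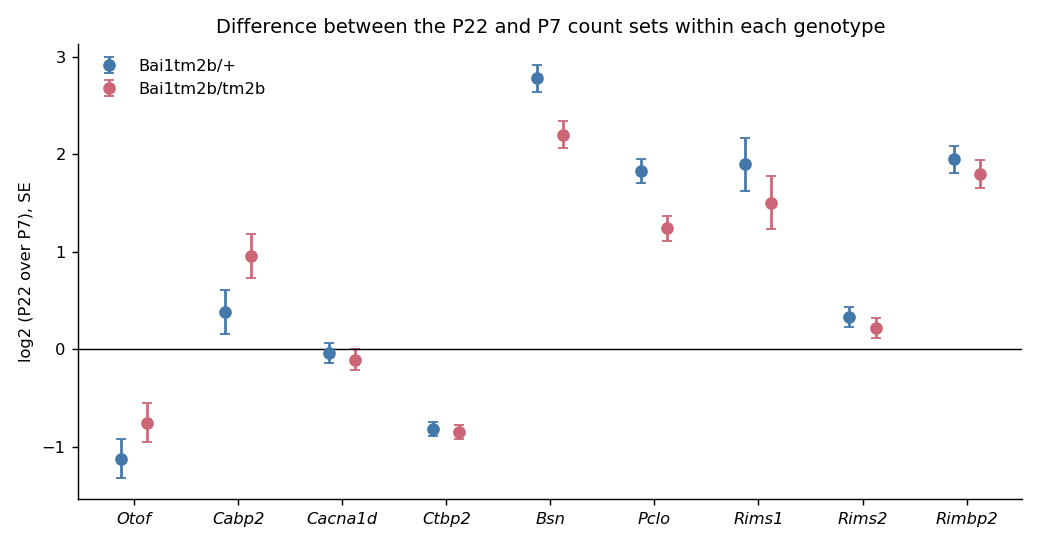
Log2 difference between the P22 and P7 count sets for each member within Bai1tm2b/+ and within Bai1tm2b/tm2b, with SE (n = 3 libraries per group). Bsn, Pclo, Rims1 and Rimbp2 lie between 1.24 and 2.78, Otof and Ctbp2 lie below 0 and Cacna1d lies near 0 in both genotypes.

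Per length of exonic sequence, Otof had the highest mean of the members in both count sets and both genotypes. In Bai1tm2b/tm2b at P22 Otof, at 13.6 to 18.9 CPM per kb, overlapped Cabp2, at 11.1 to 14.6 CPM per kb. In Bai1tm2b/+ libraries, to which the values below refer, Otof reached 24.3 ± 6.16 CPM per kb at P7 and 11.2 ± 0.905 CPM per kb at P22 (SD, n = 3). At P7 Ctbp2 (10.1), Cabp2 (5.50), Cacna1d (4.07) and Rims2 (2.44 CPM per kb) followed in that order, with no overlap between neighbours, and Rimbp2, Bsn, Pclo and Rims1, at 1.10, 0.936, 0.813 and 0.646 CPM per kb, overlapped with their neighbours. At P22 Cabp2, Bsn and Ctbp2 lay at 7.14, 6.42 and 5.72 CPM per kb and their libraries overlapped. Rimbp2 and Cacna1d, at 4.26 and 3.96, overlapped each other. Pclo, at 2.88 CPM per kb, overlapped both Rims2 at 3.07 and Rims1 at 2.42 CPM per kb, which did not overlap each other. The order depends on the length used: by the longest coding transcript, Ctbp2 in Bai1tm2b/+ at P22 was at 9.88 and Rims2 at 6.65 CPM per kb. In the rounded TPM set, where the authors' estimate already takes length into account, Ctbp2 led at 28.8 ± 2.06 TPM in Bai1tm2b/+, above Otof at 13.5 ± 1.91 and Cabp2 at 12.2 ± 1.26 TPM (SD, n = 4).

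For the members called at P22, the 5 genes with the most similar libraries were found from the root mean square (RMS) difference of log2 CPM over the 12 libraries in counts, each gene centred within each age, among 15215 genes. The nearest to Otof were Liph, Chrna10, Calml4, Veph1 and Emx2, at RMS differences of 0.0575 to 0.0931, where Otof itself varied by 0.304. Chrna10 encodes a subunit of the hair cell acetylcholine receptor. The nearest to Cabp2 were Slc27a2, Lrtm2, Calml4, Bex4 and Ackr4, at 0.135 to 0.170, where Cabp2 varied by 0.389. Calml4 was near both genes that rose. The nearest to Rims1 were Zfp804a, Wbscr17, Hecw1, Cnnm1 and Rnf157, at 0.114 to 0.125, where Rims1 varied by 0.381, and none of them was near Otof or Cabp2. Centring within each age kept the genotype difference in these profiles. The P22 log2 differences of the nearest genes were 0.38 to 0.58 for Otof, 0.51 to 0.88 for Cabp2 and -0.63 to -0.41 for Rims1. Which neighbours the members share therefore follows in part from the direction in which each member was called. These libraries share their dissections, and the order is a description.

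Of 37 other ribbon synapse and release genes listed by role, 35 were tested at P22. Their median log2 difference was -0.18, beside 0.01 over all genes tested, and of the 15 with an adjusted p under 0.05 at any size, 14 were lower and 1 was higher. Over all genes tested, 7.28% were lower and 5.04% were higher by the same criterion. The gene that was higher was Slc17a8, which encodes the vesicular glutamate transporter VGLUT3 that fills inner hair cell vesicles. It was at 22.8, 25.4 and 25.5 CPM in Bai1tm2b/+ and at 26.8, 36.2 and 40.0 CPM in Bai1tm2b/tm2b, a log2 difference of 0.49 ± 0.129 (SE, adjusted p = 0.0336), just under the size required for a call. Like Otof and Cabp2, its mutant libraries lay above all controls at P22, and at P7 in counts they overlapped (log2 difference 0.01). Slc17a8 was listed among 5 hair cell ribbon partners, which did not move together. Of these 5, 3 had an edgeR adjusted p under 0.05 at P22, 1 higher and 2 lower, and their median log2 difference was 0.06.

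By role, 7 of 11 SNARE genes and regulators and 5 of 19 scaffold and priming genes had an adjusted p under 0.05 at P22, all with lower levels in Bai1tm2b/tm2b, and the median log2 difference was -0.34 in the first group and -0.18 in the second. These are also genes of conventional synapses, and 7 of the 14 neuron markers passed the same criterion, all with lower levels. The part of neuron content in these values was not tested. At P7 in counts 0 of 35 were called and the median was 0.01, and in rounded TPM 2 of 31 were called higher, Rims3 and Rims4, small RIM proteins of the active zone. Both calls were lost without the filter on low values, with the replicate number as a block and in 6 of the 8 fits that each left out 1 library, where no gene was called. Rims3 was at 10.0 to 15.0 TPM in Bai1tm2b/+ and 19.0 to 27.0 TPM in Bai1tm2b/tm2b, whereas in the P7 count set its mutant libraries, at 3.45 to 4.45 CPM, lay below the controls at 5.69 to 10.2 CPM. Between the count sets 20 of the 35 were higher and 10 lower at P22, with a median log2 difference of 1.41. The 1 gene of this group that passed the interaction test was Bzrap1, which encodes a RIM-binding protein related to Rimbp2, at -0.99 ± 0.113 (SE, adjusted p = 0.0121). The mutant libraries of Bzrap1 lay below the controls at P22, at 54.3 to 64.9 against 70.3 to 76.8 CPM. At P7 in counts they lay above them, at 25.8 to 27.5 against 15.5 to 17.6 CPM. In 6 of the 12 fits that each left out 1 library, no gene at all passed with the size and standard error limits applied. The value of Bzrap1 in those fits was not recorded. In rounded TPM Bzrap1 was listed at 1 to 2 TPM.

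The targeted gene, summed over its isoforms, was lower in the mutant at P22, at 152 to 167 CPM for Adgrb1 in Bai1tm2b/+ and 100.2 to 105 CPM in Bai1tm2b/tm2b (log2 difference -0.61, edgeR adjusted p = 6.0e-04). At P7 the log2 difference of Adgrb1 was -0.64 in counts (adjusted p = 0.894) and 0.02 in rounded TPM (limma adjusted p = 0.930), where the short isoform that the allele keeps is included, so these values do not check the labels of single libraries.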

How the data were processed

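Poly-A RNA of 20 cochlear libraries was sequenced on a NovaSeq as paired reads. Per the labels and the study's methods, the authors aligned reads to mm10 with STAR and quantified genes with Salmon in the nf-core pipeline, with versions not given in the sources used here. The deposited P22 table and the columns of P7 replicates 5 to 7 hold estimated counts per gene, not normalized. The deposited columns of P7 replicates 1 to 4 hold TPM that were rounded to whole numbers, treated here as a score because they sum to 999644 to 999777 in each library and keep no depth. No value column was left unused (0).

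Counts were rounded and tested with edgeR 4.0.16 (filterByExpr, TMM, quasi-likelihood test) within P22, within P7, and jointly over 12 libraries for age and interaction. Rounded TPM were tested with limma 3.58.1 (trend) on log2(TPM × TMM factor + 1) after genes averaging under 5 TPM were set aside, a scale that understates changes of low genes. Adjusted p-values are Benjamini-Hochberg over all genes tested. DESeq2 1.42.0 was an alternative. R 4.3.3 and scipy 1.17.1 were used, and exact permutation tests were 2-sided. The edgeR fits for genotype, age and interaction and the limma fit were tested on simulated data, and the other steps were not.

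Groups came from the sample titles. Replicate numbers did not pair the samples: deviations of same-numbered libraries correlated at -0.226 to 0.0686. Libraries are pools, and where nothing states separate litters or days, p-values measure the spread between these pools only. The named genes are the 9 members, release genes called at P22, Slc17a8, Adgrb1 and the 5 nearest genes of each called member. A result on 1 listed gene is not reported here. Rims3, Rims4, Bzrap1 and single markers were named after their values were seen. Members and lists were chosen with earlier results of these data known. Of the 9 members, 7 matched a RefSeq promoter entry. Depth limits Rims1 most among counts, at 112 to 691 counts a library.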

Additional observations from a re-analysis of the deposited data

Results flagged for a closer look

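In groups of 4 libraries, which only the rounded TPM set has, 5 values stood apart from the other 3 of their genotype: in Bai1tm2b/tm2b at P7, Bsn at 4 TPM, Pclo at 3 TPM, Cacna1d at 8 TPM and Rims2 at 8 TPM, and Rimbp2 at 3 TPM. In each case the other 3 libraries held 1 and the same whole number, so the gap is 1 rounding step. In all, 18 groups were examined. Any group with 3 equal whole numbers and 1 other value is always marked, so the number marked cannot be set against a chance rate.

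Bsn was not called between genotypes in any set. Its mutant libraries lay below all controls at P22 (adjusted p = 0.0595 by edgeR) and above them at P7 in rounded TPM, where it lay under the filter, was not tested and differed by 1 to 2 TPM. The ratio of the Bai1tm2b/tm2b mean to the Bai1tm2b/+ mean was 0.817 at P22 in counts and 1.62 at P7 in rounded TPM, and this difference was not tested because the units differ. In the P7 count set the Bsn libraries overlapped between genotypes.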

How the results depend on the processing

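Of the fits under other settings with all libraries in, 252 values of single members kept their direction and side of the threshold, 3 lost their call and 3 reversed, and 58 counts of called members held and 2 moved. The number called higher in rounded TPM (1) was 0 without the filter on low values and 0 with a replicate block. The replicate numbers are shared by samples that no other label pairs. With the replicate block the log2 difference of Otof in TPM stayed at 0.54 with a limma adjusted p of 0.117. No call of a member changed with it in the P22 or P7 count sets. Cabp2 between ages lost its call with total counts alone (0.38).

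With 1 library left out, the number called higher was 0 to 2 at P22 and 0 to 2 in rounded TPM, where Rims1 was called (0.55) without the first Bai1tm2b/tm2b library. No fitted value that reversed had been called. With total counts alone, Ctbp2 at P22 was 0.046, and Rims2 between ages was -0.013 over both genotypes and -0.062 within Bai1tm2b/tm2b. With the median marker, Otof relative to hair cell markers at P22 was -0.16, against 0.49. Leaving out single libraries, the log2 differences spanned -0.067 to 0.012 for Ctbp2 and -0.17 to 0.0050 for Rims2 at P22. At P7 in counts they spanned -0.023 to 0.39 for Otof, -0.018 to 0.080 for Ctbp2, -0.53 to 0.038 for Rims1, -0.027 to 0.089 for Rims2 and -0.21 to 0.062 for Rimbp2. They spanned -0.12 to 0.033 for Cacna1d between ages within Bai1tm2b/+, and for the interaction -0.075 to 0.013 for Ctbp2 and -0.14 to 0.020 for Cacna1d.

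Counts over all genes moved more than those of members. Genes called higher and lower at P22 numbered 269 and 218, but 399 and 134 with total counts alone, and 108 to 305 and 125 to 283 with 1 library left out. In rounded TPM 79 and 18 became 284 and 9 without TMM factors (median of all genes 0.12 rather than 0.01), 0 and 0 without the filter or with the replicate block, and 0 to 265 and 0 to 67 with 1 library left out. Between ages 4226 and 4674 became 2885 and 6471 with total counts alone. For the interaction 0 and 5 became 31 and 88 with DESeq2, 0 to 40 and 0 to 61 with 1 library left out. DESeq2 called 44 and 4 genes at P7 in counts, where edgeR called 0 and 0. The causes were not tested. Rounding limits the 3 members at 1 to 4 TPM, and 3 pools per genotype limit P7 Rims1, whose standard error was 0.340.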
